A study of Mus musculus with 12 samples.

Results

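Shelterin and CST are the protein complexes that sit on telomeres, and their 10 genes were followed here in mouse embryonic fibroblasts that lacked telomerase. The genes were chosen by name: 7 of shelterin (Terf1, Terf2, Terf2ip, Tinf2, Pot1a, Pot1b and Acd) and 3 of CST (Ctc1, Stn1 and Ten1), out of 28853 probe sets on the array. Each had exactly 1 probe set annotated to it alone, and each probe set read above background in 12 of 12 arrays. Background was taken in each array as the level under which 95% of 1035 probe sets for olfactory receptors fell, and lay between 4.93 and 5.09 log2 units.

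The groups were mTERT KO, first-generation (G1) embryos without the telomerase reverse transcriptase gene; mTERT WT, their wild types; mTR KO, first-generation embryos without the telomerase RNA gene; and mTR WT, the wild types of that line. Each group had 3 cultures with 1 array each. All cultures came from male C57BL/6J embryos of stage E12.5-14.5, were untreated and were harvested at passage 5. According to the design text, sets of knockout and wild-type cultures were independent and were littermates within a set. A first generation without telomerase is an early stage of the model, since mice inherit long telomeres from telomerase-positive parents and lose sequence with each generation. Telomere length is not among the deposited values.

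In shelterin, TRF1 (Terf1) and TRF2 (Terf2) bind duplex TTAGGG repeats, RAP1 (Terf2ip) binds TRF2, and TIN2 (Tinf2) ties TRF1 and TRF2 to TPP1 (Acd). TPP1 holds POT1 on the single-stranded overhang and recruits telomerase. Mice have a pair of POT1 genes: POT1a chiefly represses ATR signalling at the overhang and POT1b restrains trimming of the 5′ end. CST, made of CTC1, STN1 and TEN1, also binds single-stranded DNA and brings DNA polymerase alpha-primase to fill in the C-rich strand after telomerase has acted.

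Among the 12 arrays pairwise correlations ran from 0.984 to 0.997, and no pair was identical. Tert, the gene removed in the mTERT line, read 4.99, 4.84 and 4.76 log2 units in mTERT KO, against 5.72, 5.74 and 5.51 in mTERT WT. It was lower by a log2 difference of −0.79 ± 0.08 (SE; limma, adjusted p = 0.0352). Tert did not read above background in mTERT KO 2 and mTERT KO 3, so the size of that difference is limited by the background. The difference lay between −0.87 and −0.74 under all 15 alternatives, but only 7 of them made the call. With a random replicate block the call held (limma, adjusted p = 0.0102). With a fixed block it did not (0.134, and 0.101 in the 6 mTERT arrays alone). Quantile normalization gave an adjusted p of 0.0504, and the 6 mTERT arrays alone without the block gave 1. Without mTERT KO 2, mTERT KO 3, mTERT WT 1 or mTERT WT 2 the adjusted p was 0.28 to 0.347. Terc, the gene removed in the mTR line, read below background in 12 of 12 arrays and so cannot check that knockout. All 11 measured fibroblast markers read above background in every array, with means of 10.6 to 11.3. The 16 macrophage markers also read above background in every array, and their mean varied between cultures, at 7.81, 9.61 and 9.37 in mTERT KO, 8.08, 9.43 and 9.72 in mTERT WT, 9.89, 9.25 and 7.89 in mTR KO, and 6.98, 8.66 and 9.06 in mTR WT. Of the endothelial markers 0 to 1 of 6 read above background, of the epithelial 2 to 5 of 8, and of the germ line and pluripotent 1 to 2 of 6. In cultures of mixed cells, a shift in the share of cells and a shift in RNA per cell cannot be told apart.

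**Figure D1:**
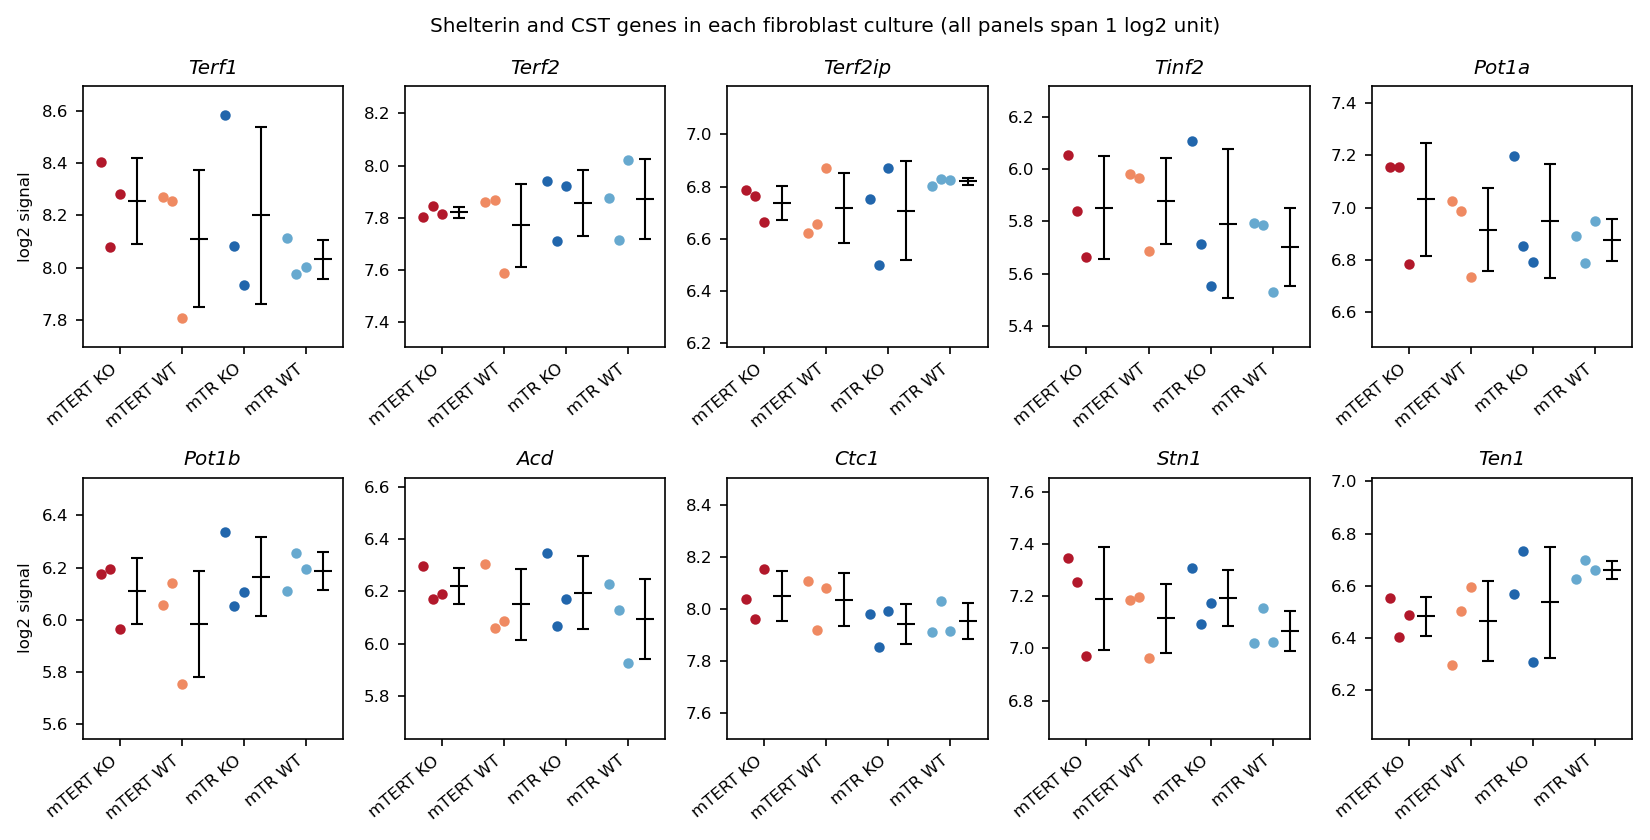
The log2 signal of each shelterin and CST gene (vertical axis) in mTERT KO, mTERT WT, mTR KO and mTR WT cultures (horizontal axis); coloured points are cultures 1 to 3 from left to right, and the black bar is the mean with its SD (n = 3). Every panel spans the same height, and within each line the knockout and wild-type points overlap for all 10 genes.

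None of the 10 genes passed the 5% threshold in either knockout (limma, adjusted p = 1 in the mTERT line for all 10, and at least 0.859 in the mTR line). In mTERT KO against mTERT WT the log2 differences lay between −0.03 for Tinf2 and 0.14 for Terf1, and in mTR KO against mTR WT between −0.12 for Ten1 and 0.17 for Terf1. The 95% intervals of the folds reached from 0.78 (Tinf2) to 1.43 (Terf1) in the mTERT line and from 0.78 (Ten1) to 1.45 (Terf1) in the mTR line. These are the outermost bounds of the 10 genes, and most had narrower intervals. The fit used no pairs of cultures, although mTERT cultures of 1 number resembled each other. Fitted as pairs in the 6 mTERT arrays alone, the log2 interval of Tinf2 was −0.198 to 0.145, against −0.358 to 0.305 unpaired. That of Terf1 was −0.132 to 0.42, against −0.227 to 0.514. The smallest adjusted p of the paired mTERT fit was 0.966 (limma, Pot1b). A p that misses the threshold does not show that the levels were equal.

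For comparison, the limma fit called 0.00347% of all probe sets in the mTERT comparison and 0% in the mTR comparison. At an unadjusted p under 0.05 it passed 1.92% and 5.82% of all probe sets, against 0 of the 10 genes in both. Knockout and wild-type cultures did not overlap for 5.97% of all probe sets in the mTERT line and 11.4% in the mTR line, and they overlapped for all 10 genes. In the mTERT line 9 of 10 differences were above 0 (median 0.06, against 0.001 over all probe sets), and in the mTR line 5 of 10 (median 0.03). The share of all probe sets above 0 was not counted, in these or the later comparisons. On leaving out each array in turn, the mTERT median ran from 0.02 (without mTERT WT 3) to 0.101 (without mTERT WT 1). The mTR median ran from −0.053 (without mTR KO 1) to 0.09 (without mTR KO 2).

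**Figure D2:**
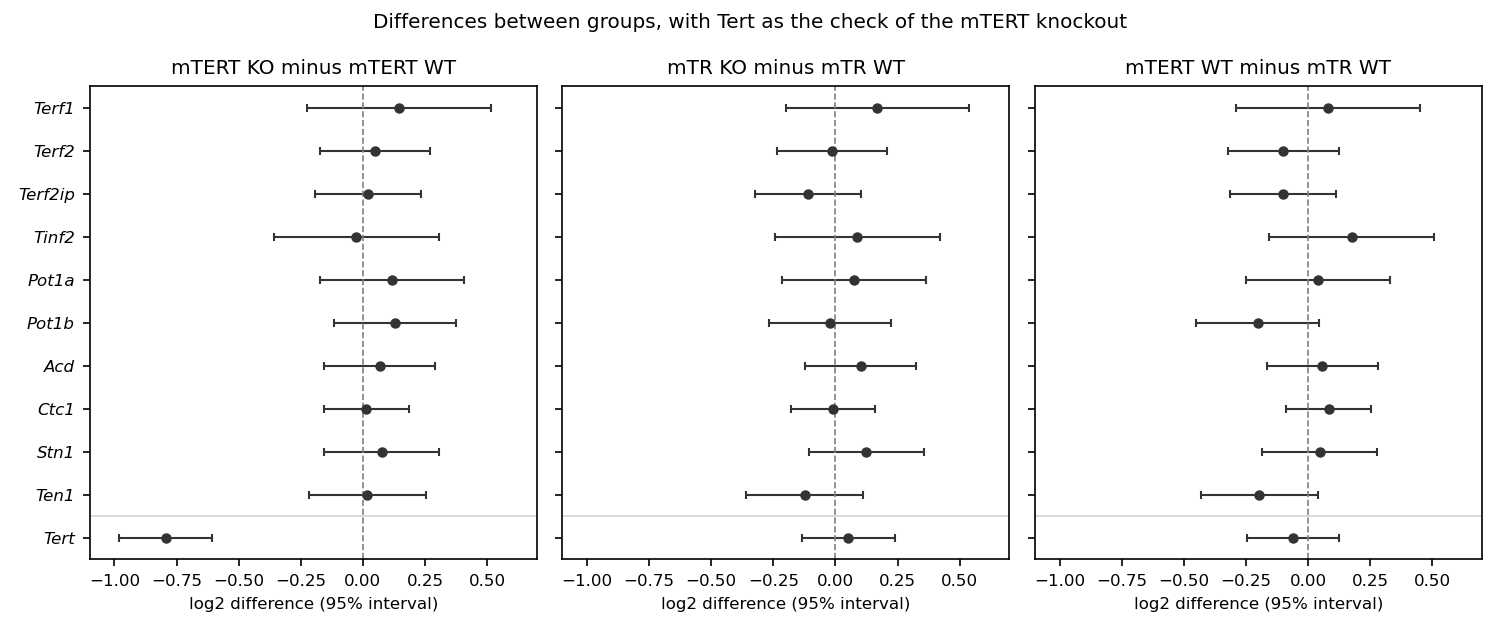
Log2 difference (horizontal axis) of each gene (vertical axis) for mTERT KO minus mTERT WT, mTR KO minus mTR WT and mTERT WT minus mTR WT; points are limma estimates over 12 arrays and bars their 95% intervals. Every interval of a shelterin or CST gene includes 0, and that of Tert in the mTERT line does not.

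Terf1, whose product TRF1 coats the telomeric duplex and aids its replication, had the largest difference of the 10 in both knockouts and also the widest spread. It read 8.40, 8.08 and 8.28 in mTERT KO, 8.27, 8.26 and 7.81 in mTERT WT, 8.58, 8.08 and 7.93 in mTR KO, and 8.12, 7.98 and 8.003 in mTR WT. The highest array was mTR KO 1 and the lowest mTERT WT 3, and groups overlapped in both lines. The differences were 0.14 ± 0.17 in the mTERT line (SE; limma, adjusted p = 1) and 0.17 ± 0.17 in the mTR line (adjusted p = 0.877). Each value rested on 1 culture: the mTERT difference was −0.008 without mTERT WT 3, and the mTR difference −0.02 without mTR KO 1.

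Terf2, whose product TRF2 forms the t-loop and represses ATM signalling and end joining, was near equal in both comparisons. Its means were 7.82 ± 0.02 in mTERT KO and 7.77 ± 0.16 in mTERT WT, and 7.86 ± 0.13 in mTR KO and 7.87 ± 0.15 in mTR WT (SD, n = 3 each). The interval of the fold was 0.886 to 1.21 in the mTERT line and 0.849 to 1.16 in the mTR line. Terf2ip encodes RAP1, which reaches telomeres through TRF2. It read 6.79, 6.76 and 6.66 in mTERT KO, 6.62, 6.66 and 6.87 in mTERT WT, 6.75, 6.50 and 6.87 in mTR KO, and 6.80, 6.83 and 6.83 in mTR WT. The mTR WT cultures lay close together and inside the range of the mTR KO cultures. The difference in the mTR line was −0.11 ± 0.10 (adjusted p = 0.86).

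Tinf2 encodes TIN2, the bridge of the complex, and was the only gene with a difference below 0 in the mTERT line. It read 6.06, 5.84 and 5.66 in mTERT KO, 5.98, 5.97 and 5.69 in mTERT WT, 6.11, 5.72 and 5.55 in mTR KO, and 5.79, 5.79 and 5.53 in mTR WT. Culture 3 was the lowest of its group in all 4 groups. Acd, which encodes TPP1, averaged 6.22 ± 0.07 in mTERT KO and 6.15 ± 0.14 in mTERT WT, and 6.20 ± 0.14 in mTR KO and 6.09 ± 0.15 in mTR WT (SD, n = 3 each). Both intervals of its fold included 1, with upper bounds of 1.22 in the mTERT line and 1.25 in the mTR line.

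The POT1 paralogues did not differ past the threshold either. Pot1a read 7.16, 7.16 and 6.78 in mTERT KO, 7.03, 6.99 and 6.73 in mTERT WT, 7.20, 6.85 and 6.79 in mTR KO, and 6.89, 6.79 and 6.95 in mTR WT. Pot1b read 6.17, 6.20 and 5.97 in mTERT KO, 6.06, 6.14 and 5.76 in mTERT WT, 6.34, 6.06 and 6.11 in mTR KO, and 6.11, 6.26 and 6.20 in mTR WT. In the mTERT line culture 3 was the lowest of its group for both paralogues. Knockout and wild-type cultures of the same number resembled each other there, and the knockout of each pair was the higher one, by 0.13, 0.17 and 0.05 for Pot1a and by 0.12, 0.06 and 0.21 for Pot1b. Fitted as pairs, Pot1b differed by 0.13 ± 0.07 (limma, adjusted p = 0.966) and Pot1a by 0.12 ± 0.07 (adjusted p = 0.983). Both unpaired differences rested largely on mTERT WT 3, without which they were 0.013 for Pot1b and 0.026 for Pot1a, and over the omission of each array they ran from 0.013 to 0.206 for Pot1b and from 0.026 to 0.241 for Pot1a. In the mTR line the unpaired differences were 0.07 ± 0.13 for Pot1a (adjusted p = 0.935) and −0.02 ± 0.11 for Pot1b (adjusted p = 0.983).

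Of CST, Stn1, whose product contacts polymerase alpha, read 7.35, 7.26 and 6.97 in mTERT KO, 7.18, 7.20 and 6.96 in mTERT WT, 7.31, 7.10 and 7.17 in mTR KO, and 7.02, 7.16 and 7.02 in mTR WT. Again culture 3 was the lowest in both mTERT groups, and the knockout was higher in each mTERT pair, by 0.16, 0.06 and 0.008. Fitted as pairs, Stn1 differed by 0.08 ± 0.07 in the mTERT line (limma, adjusted p = 0.993). The share of all probe sets that were higher in each mTERT pair, as Stn1, Pot1a and Pot1b were, was not counted. The other genes had mixed signs over the 3 mTERT pairs. The knockout was higher in 2 pairs for Terf1, Terf2ip, Acd and Ctc1, and in 1 pair for Terf2, Tinf2 and Ten1. The unpaired differences of Stn1 were 0.08 ± 0.11 in the mTERT line (adjusted p = 1) and 0.12 ± 0.11 in the mTR line (adjusted p = 0.859). Ctc1, the scaffold subunit, had the narrowest range of the 10 genes over the 12 arrays, 7.86 to 8.15, and the tightest intervals, with folds of 0.898 to 1.14 in the mTERT line and 0.882 to 1.12 in the mTR line. Ten1, the smallest subunit, read 6.55, 6.41 and 6.49 in mTERT KO, 6.30, 6.50 and 6.60 in mTERT WT, 6.57, 6.73 and 6.31 in mTR KO, and 6.63, 6.70 and 6.66 in mTR WT. The mTR KO cultures reached both above and below all mTR WT cultures, and the difference was −0.12 ± 0.11 (adjusted p = 0.86).

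The effects of the 2 knockouts did not differ past the threshold for any of the genes. The difference of effects, mTERT line minus mTR line, ran from −0.12 for Tinf2 to 0.15 for Pot1b, whose interval was −0.20 to 0.50. The limma fit called 0% of all probe sets in that contrast and passed 3.34% at an unadjusted p under 0.05, against 0 of the 10 genes. Averaged over both lines, the effect ran from −0.05 for Ten1 to 0.16 ± 0.12 for Terf1 (adjusted p = 0.985), with 8 of 10 above 0. The fold of Stn1 was 1.07, with an interval of 0.957 to 1.20, and that of Ctc1 was 1.00, with an interval of 0.921 to 1.09. In the averaged contrast 0% of all probe sets were called and 4.09% passed unadjusted, against 0 of the 10 genes. All 6 knockout and all 6 wild-type cultures were separate for 0.152% of all probe sets and for none of the 10 genes.

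Between the wild types of the lines, Ten1 was the only gene of the 10 whose groups did not overlap: all mTERT WT cultures read below all mTR WT cultures. Such separation was seen in 13.1% of all probe sets. The difference was −0.20 ± 0.11 (limma, adjusted p = 0.799). Pot1b differed by −0.20 ± 0.11 as well (adjusted p = 0.8), with groups that overlapped. In this comparison 0.0173% of all probe sets were called and 6.78% passed unadjusted, against 0 of the 10 genes.

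Ordered by mean, the 4 groups of a gene stood close together. Of the 30 steps between neighbouring groups, none was larger than the gene's SD within groups, which ran from 0.09 to 0.23, and the widest step was 0.959 of that SD. Ranges of neighbours overlapped in 29 of 30 steps. The exception was Terf2ip, whose mTR WT cultures all lay above the mTERT KO cultures, but by little (lowest 6.803 against highest 6.787). The share of all probe sets that separated these groups was not counted. It was 5.97% between the mTERT groups, 11.4% between the mTR groups and 13.1% between the wild types.

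The levels were also compared between genes, culture by culture. Across the 12 cultures, Pot1a and Stn1 correlated at Pearson's r = 0.801 (permutation p = 0.0024, adjusted p = 0.054; Spearman's rho = 0.846, adjusted p = 0.0373; all two-sided), and at 0.71 without the 2 cultures farthest from the median of Stn1. Within lines their r was 0.973 for the mTERT line and 0.518 for the mTR line. Terf1 and Tinf2 correlated at r = 0.787 (permutation p = 0.00239, adjusted p = 0.054; rho = 0.692, adjusted p = 0.154), and at 0.578 without the 2 farthest. The permutations treat cultures as independent, whereas mTERT cultures of 1 number resembled each other, so these p-values are too small. With such cultures averaged, which left 9 units, r was 0.72 for Pot1a with Stn1 and 0.897 for Terf1 with Tinf2. Of the 45 pairs of genes over 12 cultures, 0 passed the adjustment on r and 1 on rho. The r ran from −0.429 to 0.801, with a median of 0.0915. Tinf2, Terf1, Pot1a, Stn1 and Acd held the high values, and Ctc1, Terf2ip and Ten1 had low or negative ones with most of the others. Such an r was not rare on these arrays: 2.29% of 14425 brighter probe sets correlated with Terf1 at least as highly as Tinf2 did, and 1.64% with Stn1 at least as highly as Pot1a did.

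**Figure D3:**
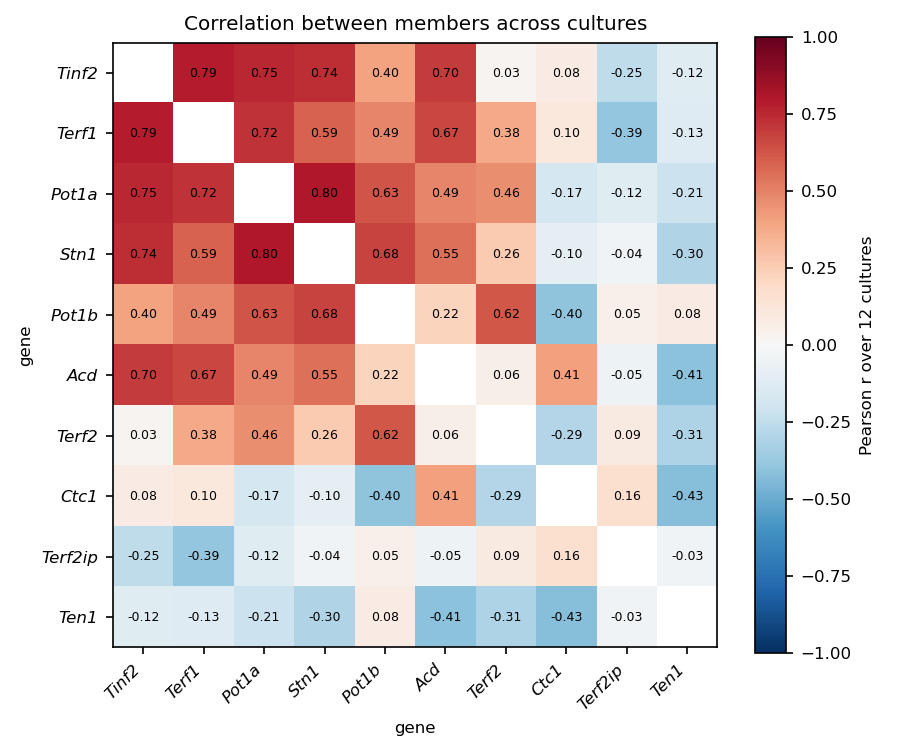
Pearson's r between each pair of genes (rows and columns) over 12 cultures, by colour and printed value, with the diagonal left blank. Tinf2, Terf1, Pot1a and Stn1 form the block of high values, up to 0.80 for Pot1a with Stn1, while Ctc1, Terf2ip and Ten1 stand outside it.

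Some of the genes followed markers of dividing cells or of fibroblasts. Set against the mean of 15 cell cycle genes, Terf1 had r = 0.856 (permutation p = 0.00036, adjusted p = 0.0054; rho = 0.881, adjusted p = 0.00555), 0.701 within the mTERT line and 0.969 within the mTR line. Tinf2 had r = 0.842 (permutation p = 0.00073, adjusted p = 0.0073; rho = 0.832, adjusted p = 0.0101), with 0.821 and 0.844 within these lines. Without mTR KO 1 and mTR KO 3, the cultures with the highest and lowest cell cycle mean, r was 0.747 for Terf1 and 0.721 for Tinf2. The cell cycle mean was 8.43, 8.09 and 8.11 in mTERT KO, 8.35, 8.16 and 8.07 in mTERT WT, 8.57, 8.13 and 7.77 in mTR KO, and 8.12, 7.84 and 7.97 in mTR WT. The culture highest for Terf1 and Tinf2, mTR KO 1, was thus also highest in these markers, and the part of dividing cells in the levels of both genes was not tested.

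Pot1a followed the mean of 11 fibroblast genes (collagens and other matrix and surface genes) with r = 0.946 (permutation p = 1e-05, the smallest that 100000 permutations can give, adjusted p = 0.0003; rho = 0.972, adjusted p = 0.0003). The relation held without the 2 farthest cultures, mTERT WT 3 and mTR KO 1, at 0.945, and within the mTERT line at 0.982 and the mTR line at 0.935. Of 14415 other brighter probe sets 0.0763% followed the fibroblast mean at least as closely. Stn1 had r = 0.82 with it (permutation p = 0.00122, adjusted p = 0.00915; rho = 0.86, adjusted p = 0.0077), 0.719 without these cultures, and within the lines 0.936 (mTERT) and 0.573 (mTR). Tinf2 had r = 0.72 (permutation p = 0.00833, adjusted p = 0.0357; rho = 0.776, adjusted p = 0.0251), 0.681 without them, 0.785 in the mTERT line and 0.80 in the mTR line. The 11 fibroblast genes did not move as one between knockouts and wild types. In the mTERT comparison 6 were above 0 and 5 below (median 0.018, from −0.119 to 1.211). In the mTR comparison 5 were above 0 and 6 below (median −0.01, from −0.168 to 0.4). How far the mean rests on 1 marker was not tested. What fibroblast content contributes to the levels of Pot1a, Stn1 and Tinf2 was not tested either.

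Of 30 relations between a gene and a marker mean, 8 passed the adjustment on r and 5 on both r and rho. Of other brighter probe sets, 6.19% had r above 0.7 with the cell cycle mean and 8.8% with the fibroblast mean. At least as high with the cell cycle mean were 1.64% (Terf1), 1.96% (Tinf2) and 4.7% (Pot1a). With the fibroblast mean they were 0.0763% (Pot1a), 2.76% (Stn1), 5.2% (Pot1b), 7.69% (Tinf2) and 8.66% (Terf1). The 3 that passed on r alone were Pot1a with the cell cycle mean (0.74), and Terf1 (0.703) and Pot1b (0.765) with the fibroblast mean. The last 2 rest on mTERT WT 3 and mTR KO 1, without which r was 0.368 for Terf1 and 0.41 for Pot1b. No relation with the macrophage mean passed, with r between −0.305 for Acd and 0.16 for Ten1, although of the 3 means that one had the widest range. The lines differed in sign for some genes: r was −0.692 in the mTERT line and 0.525 in the mTR line for Terf1, −0.748 and 0.376 for Tinf2, −0.524 and 0.577 for Pot1a, and −0.595 and 0.541 for Stn1. Acd stood at −0.881 in the mTERT line and −0.0564 in the mTR line. With 6 cultures a line these are descriptions, and the difference between lines was not tested. The permutations treat cultures as independent, whereas mTERT cultures of 1 number resembled each other, so these p-values are too small. With each such pair averaged to 1 of 9 units, r was 0.962 for Terf1 and 0.846 for Tinf2 with the cell cycle mean, and 0.943 for Pot1a and 0.776 for Stn1 with the fibroblast mean.

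**Figure D4:**
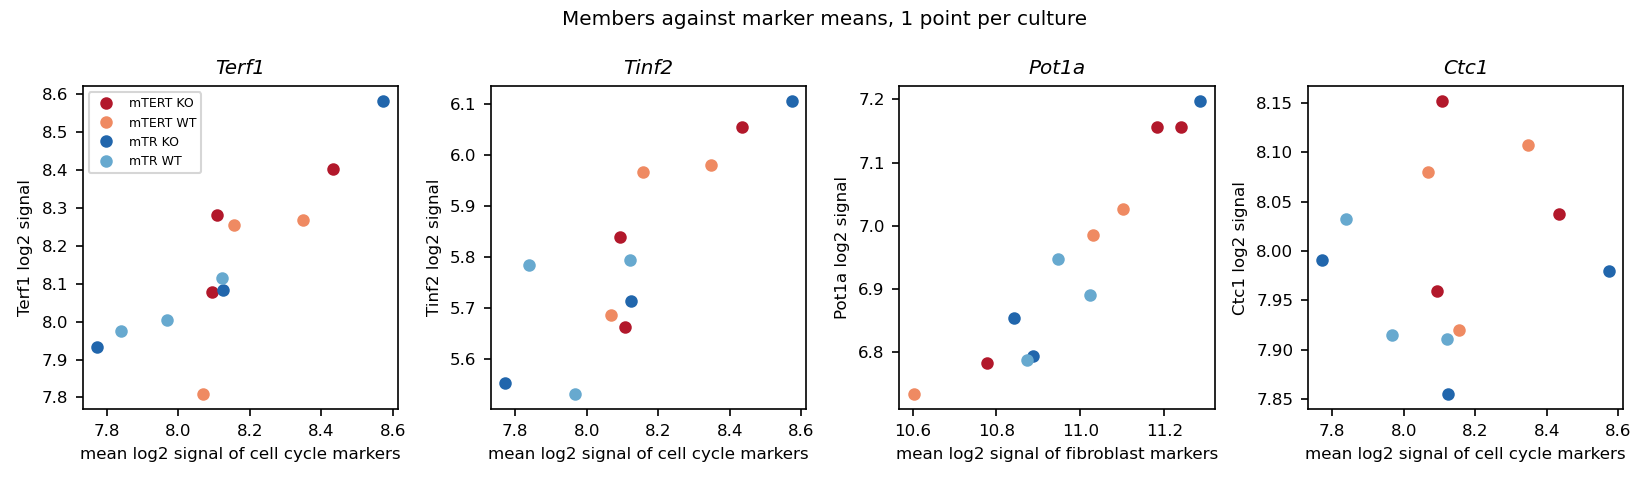
Log2 signal (vertical axes) of Terf1, Tinf2, Pot1a and Ctc1 against the mean log2 signal of cell cycle or fibroblast markers (horizontal axes), 1 point per culture, coloured by group. Terf1 (r = 0.856), Tinf2 (r = 0.842) and Pot1a (r = 0.946) climb along the axis, with points of all 4 groups along the trend, and Ctc1 (r = 0.116) does not.

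Promoters are shown for the genes with a relation to a marker mean that passed on r, so that their sequence can be set beside that pattern. RefSeq (GRCm38.p6) lists a promoter for 9 of the 10 genes, all but Terf1, and the 250 bases before the first listed start are given 5′ to 3′ on the gene's strand for Tinf2 (chr14:55681818-55682067), Pot1a (chr6:25809219-25809468), Pot1b (chr17:55712637-55712886) and Stn1 (chr19:47537120-47537369), all on the minus strand. Capitals mark matches, on either strand, to the motifs named after the sequences.
Tinf2: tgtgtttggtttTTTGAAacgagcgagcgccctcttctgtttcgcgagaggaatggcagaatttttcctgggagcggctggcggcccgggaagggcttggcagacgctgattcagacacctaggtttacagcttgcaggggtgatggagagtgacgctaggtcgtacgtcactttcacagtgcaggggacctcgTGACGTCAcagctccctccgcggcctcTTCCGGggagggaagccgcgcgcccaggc
Pot1a: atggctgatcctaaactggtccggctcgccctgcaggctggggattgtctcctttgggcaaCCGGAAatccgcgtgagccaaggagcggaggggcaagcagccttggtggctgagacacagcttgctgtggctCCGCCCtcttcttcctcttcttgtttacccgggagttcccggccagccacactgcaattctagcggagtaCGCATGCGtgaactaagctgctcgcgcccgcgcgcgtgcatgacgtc
Pot1b: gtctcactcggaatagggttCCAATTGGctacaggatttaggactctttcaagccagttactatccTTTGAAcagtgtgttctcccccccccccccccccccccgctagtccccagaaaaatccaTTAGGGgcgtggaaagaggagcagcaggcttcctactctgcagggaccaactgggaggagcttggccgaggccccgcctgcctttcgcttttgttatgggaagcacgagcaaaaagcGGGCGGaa
Stn1: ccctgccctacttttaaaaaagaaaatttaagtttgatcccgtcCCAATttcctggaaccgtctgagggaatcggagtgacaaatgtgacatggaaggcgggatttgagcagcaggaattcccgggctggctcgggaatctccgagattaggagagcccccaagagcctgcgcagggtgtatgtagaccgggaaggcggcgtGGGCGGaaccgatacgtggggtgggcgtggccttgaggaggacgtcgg

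The motifs were chosen after these sequences were seen. Tinf2 held a cyclic AMP response element (TGACGTCA, in 1.62% of 27025 promoters of this length) and was the only one of the 9 to do so. Pot1a held the core of an NRF1 site (GCATGCG, in 3.07% of promoters) on both strands in overlapping matches, the only one of the 9. An ETS motif (CCGGAA, 12.2%) was in Tinf2, Pot1a and Acd. A GC box (GGGCGG, 32.9%) was in 5 of the 9, among them Pot1a, Pot1b and Stn1, and a CCAAT box (34.5%) was in 4, among them Pot1b and Stn1. Pot1b held the telomere repeat unit TTAGGG itself (9.25% of promoters), and Ctc1, not shown, an E-box (CACGTG, 6.05%). Of motifs known from cell cycle genes, the E2F motif (TTTNGCGC, 1.15%) was in none of the 9, and the CHR motif (TTTGAA, 16.3%) was in 3, Tinf2, Pot1b and Terf2. None of the searched motifs was shared by Tinf2, Pot1a, Pot1b and Stn1. A match is a description of these letters and not a binding site.

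Other genes with the most similar pattern over the 12 cultures were sought among 11727 brighter probe sets of 1 gene, as a description. The closest were Kntc1 (r = 0.931) and Foxred1 (0.927) for Terf1, Mms19 (0.952) and G2e3 (0.947) for Tinf2, Sp3 and Arhgap20 (0.95 each) for Pot1a, and Axin1 (0.952) and Amer1 (0.948) for Stn1. For Pot1b they were Gtdc1 (0.933) and Smarcc2 (0.926), for Acd Rrm1 (0.931) and Nup107 (0.884), and for Ctc1 Usb1 (0.93) and Jmjd4 (0.859). Terf2 was closest to Pigb (0.885) and Klhl7 (0.872), Terf2ip to Zfp637 (0.91) and Lipo3 (0.859), and Ten1 to Snx15 (0.899) and Nt5m (0.844). No gene was the closest to more than 1 of the 10, and none of the 10 was among them.

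Genes that work with shelterin and CST gave no call either, apart from Tert. DNA polymerase alpha-primase, which CST brings to the C-rich strand, had 3 of 4 subunits above 0 in the mTERT comparison (median 0.11) and 4 of 4 in the mTR comparison (median 0.17). The catalytic subunit gene Pola1 differed by 0.13 ± 0.23 and by 0.44 ± 0.23 in these comparisons (limma, adjusted p = 1 and 0.84), Prim1 by 0.26 in the mTR line and Pola2 by 0.12 in the mTERT line. The list of TRF1 regulators includes the tankyrases, which release TRF1 from DNA in human cells. It had 6 of 9 above 0 (median 0.04) in the mTERT comparison and 5 of 9 (median 0.005) in the mTR comparison. Of these, Rlim, a ubiquitin ligase for TRF1 in human cells, differed by 0.20 ± 0.09 in the mTR line (adjusted p = 0.839), Gnl3l by −0.21 in the mTR line, and Pinx1 by 0.14 and Gnl3 by 0.09 in the mTERT line.

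Nucleases and helicases that act at telomeres had 10 of 11 above 0 (median 0.04) in the mTERT comparison and 6 of 11 (median 0.03) in the mTR comparison. Blm, a RecQ helicase, differed by 0.19 ± 0.15 (adjusted p = 1) and 0.33 ± 0.15 (adjusted p = 0.839), while Exo1 stood at 0.12 in the mTERT line and Mus81 at −0.13 in the mTR line. End-joining and MRN genes had 6 of 9 (median 0.07) and 7 of 9 (median 0.07) above 0. Xrcc5, which encodes Ku80, differed by 0.20 ± 0.09 in the mTERT line (adjusted p = 1), Parp1 by 0.13 there, and Rif1 by 0.47 ± 0.28 (adjusted p = 0.84) and Mre11a by 0.15 in the mTR line. The kinases and adaptors of DNA-end signalling that shelterin holds back had 11 of 12 (median 0.06) and 9 of 12 (median 0.07) above 0. Among them Atr differed by 0.10 in the mTERT line and by 0.15 ± 0.08 in the mTR line (adjusted p = 0.839), Atm by 0.11 in the mTERT line and Trp53bp1 by 0.13 in the mTR line.

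Other telomere-binding and telomeric chromatin genes had 7 of 10 (median 0.02) and 8 of 10 (median 0.12) above 0. Zbtb48, which encodes the telomere zinc finger protein TZAP, differed by 0.19 ± 0.06 in the mTERT line (adjusted p = 1), Atrx by 0.30 ± 0.15 in the mTR line (adjusted p = 0.839), and Hnrnpa2b1 by 0.09 in the mTERT line and 0.18 in the mTR line. The adaptors that tie telomeres to the nuclear envelope in meiosis had 3 of 5 above 0 in the mTERT comparison (median 0.01) and 0 of 5 in the mTR comparison (median −0.10). Sun2, an envelope protein of body cells too, differed by −0.29 ± 0.08 in the mTR line (adjusted p = 0.839) and Sun1 by −0.13, and in the mTERT line Sun1 stood at 0.06 and Terb1, which read below background, at 0.06. Of the 7 telomerase subunit genes, Tert alone passed, in the mTERT comparison. Its call was lost with the fixed replicate block (limma, adjusted p = 0.134) and held with the random one (adjusted p = 0.0102).

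**Figure D5:**
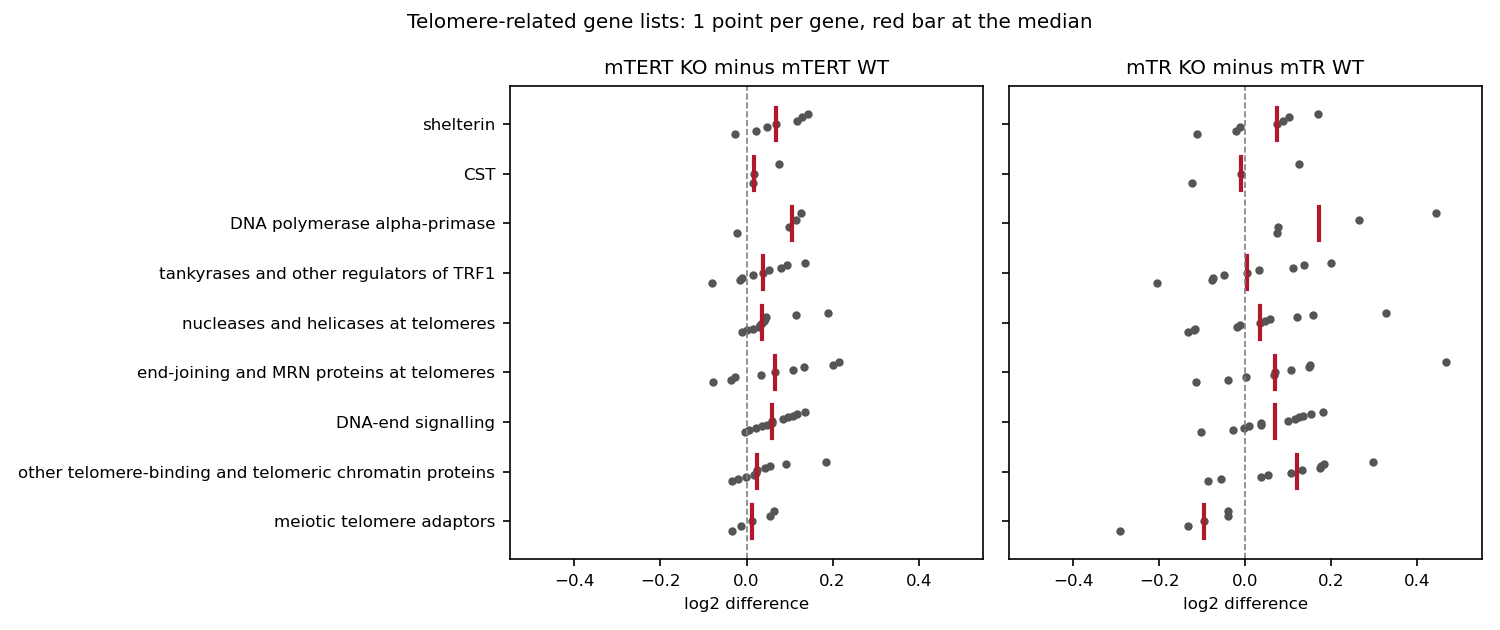
Log2 differences (horizontal axis) of genes of shelterin, CST and related lists (vertical axis) for mTERT KO minus mTERT WT and mTR KO minus mTR WT; each grey point is 1 gene and the red bar the list's median. The medians run from 0.01 to 0.11 in the mTERT comparison and from −0.10 to 0.17 in the mTR comparison, and no gene shown passed the 5% threshold.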

How the data were processed

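RNA of 12 cultures was hybridised to Affymetrix arrays, 1 per culture. The deposited table holds log2 signals per probe set. The submitters' processing notes list GCOS 1.4, PLIER and Affymetrix Expression Console, with no role for any. How the authors brought arrays to a common scale is not stated in the sources used. The values were used as deposited. Array medians ran from 5.46 to 5.50.

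Groups and replicate numbers follow the labels. The platform annotation gave 1 symbol to 21789 probe sets, several to 1621 and none to 5443. A model of 4 group means was fitted to 28853 probe sets with limma 3.58.1 in R 4.3.3, with Benjamini-Hochberg adjustment over all of them and a threshold of 5%. No set test was run. Correlations and their 100000 permutations were computed with numpy 2.4.6, with ranks from scipy 1.17.1. They were adjusted within each family, and were chosen after the levels were seen. The fit was tested on simulated data. Each limma p of the main fit sets a difference against the spread between cultures within the 4 groups. In the mTERT line that spread includes what cultures of 1 number share. The number of arrays limits the precision.

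The genes and lists were chosen with earlier results of these data known. The text names all 10 genes, and of each related list every gene that passed, else the 2 with the smallest p in each knockout comparison. 6 listed symbols without a probe set of their own (among them Rnf8, Suv39h1 and Spdya) were not analysed here.

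The design text describes littermate sets. Over 14426 brighter probe sets, mTERT cultures of 1 number deviated together from their group means (r = 0.674, 0.733 and 0.790). From the data, these numbers were read as pairs in the paired differences, the block fits and the averaged units. The main fit used no pairs, and its mTERT intervals and p-values are unpaired. In the mTR line r was −0.156, 0.289 and −0.377, so the numbers there were not averaged to units, and no paired differences are given. The block fits, fixed and random, still used the mTR numbers as blocks, also in the contrasts that join both lines.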

Additional observations from a re-analysis of the deposited data

How the results depend on the processing

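In each of the 5 contrasts 0 of the 10 genes were called, by the limma fit and under all alternatives run: quantile normalization, median centring, testing brighter probe sets only, a trended and robust variance, a fit of the compared groups alone, the fixed and random replicate block, and the omission of each array. The smallest adjusted p of any of the 10 genes under an alternative was 0.61 in the mTR comparison, 0.633 between the wild types and 0.966 in the mTERT comparison. The mean over a gene's probe sets is the same value here, since each gene has 1.

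Direction was less stable than the calls. Normalization and the omission of arrays can move an estimate, and gave 160 values of single genes. Of these 135 kept their sign and 25 did not, 23 of them on leaving out an array, and 13 of the 20 differences of a gene were affected. On leaving out each array in turn, the mTERT differences ran from −0.008 to 0.232 for Terf1, −0.044 to 0.096 for Terf2, −0.027 to 0.098 for Terf2ip, −0.128 to 0.068 for Tinf2, −0.044 to 0.059 for Ctc1, −0.002 to 0.186 for Stn1 and −0.066 to 0.083 for Ten1. The mTR differences ran from −0.023 to 0.303 for Terf1, −0.091 to 0.062 for Terf2, −0.069 to 0.208 for Tinf2, −0.052 to 0.151 for Pot1a, −0.106 to 0.034 for Pot1b and −0.036 to 0.033 for Ctc1. Quantile normalization turned the mTR differences of Terf2 and Ctc1 to 0.003 and 0.007, and the cause was not tested. Fitted with a replicate block on the paired mTERT cultures, Pot1b differed by 0.128 (adjusted p = 0.966). The replicate block, fixed or random, changed no call of the 10 genes in any contrast. The call of Tert in the mTERT line was lost with the fixed block (limma, adjusted p = 0.134, and 0.101 in the 6 arrays alone). That call held with the random block (adjusted p = 0.0102). Between the wild types the fixed block was the replicate number taken across the lines. Cultures of different lines with the same number share no label beyond it. That fit called 9 probe sets of all genes, against 5 without a block. Over all alternatives the probe sets called were 0 to 2 in the mTERT comparison, 0 to 3 in the mTR comparison and 0 to 11 between the wild types. In the mTR line, where the samples share only a number, the replicate block called 0 of the 10 genes too.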

Other observations

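Of the genes related to shelterin and CST, telomerase subunits aside, the 3 given here had an unadjusted p under 0.05 in the difference of the knockout effects, mTERT line minus mTR line, and none passed the adjustment. They were picked after their values were seen. They were 1 of 9 end-joining and MRN genes (Xrcc5), 1 of 10 other telomere-binding genes (Zbtb48) and 1 of 5 meiotic adaptors (Sun2). The other related lists, of 4, 9, 11 and 12 measured genes, had 0 each. Of all probe sets, 3.34% passed that unadjusted p in this contrast. Xrcc5 (Ku80) differed by 0.20 in the mTERT line and −0.11 in the mTR line, a difference of 0.31 ± 0.12 (limma, adjusted p = 1). Zbtb48 differed by 0.19 in the mTERT line and −0.09 in the mTR line, a difference of 0.27 ± 0.08 (adjusted p = 1). Sun2 differed by 0.01 in the mTERT line and −0.29 in the mTR line, a difference of 0.30 ± 0.11 (adjusted p = 1). Between the wild types, mTERT WT minus mTR WT, the values were −0.27 for Xrcc5 (adjusted p = 0.547), −0.20 for Zbtb48 (adjusted p = 0.538) and −0.19 for Sun2 (adjusted p = 0.687). The wild-type arrays enter both kinds of contrast, so these values are not independent.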
